A study of Mus musculus with 18 samples.

Results

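The transient receptor potential (TRP) superfamily and the Piezo family, cation channels of the plasma membrane and of intracellular organelles, were followed through 18 mRNA sequencing libraries from the mouse mammary carcinoma lines AT-3 and E0771. The genes were taken by symbol and Ensembl ID from a list of 29 names (TRPC, TRPV, TRPM, TRPA, TRPML, TRPP and Piezo genes), and 28 of them had a row among the 32286 entries of the count table. Trpc2 had no row under its Ensembl ID. AT-3 was derived from a mammary tumour of a mouse that carried the polyoma middle T antigen, and E0771 from a spontaneous mammary tumour of a C57BL/6 mouse. Each carried a doxycycline-inducible retroviral vector (pRetroX), either empty, or with wild-type MRTFA, or with MRTFA with the amino acid change Y238A, labelled as deficient in SRF binding. Doxycycline (2 µg/ml, 48 h) was given to all 6 groups, the empty vector controls included, with 3 libraries per group. The study asked how the binding of MRTFA to SRF bears on the stiffness of cancer cells, and its title names calcium and potassium ions. The labels name no separate cultures or clones, so p-values measure only the spread between these libraries, which may be technical.

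TRP channels are assembled from several subunits and most pass calcium, sodium or both. TRPC channels open downstream of phospholipase C, TRPV and TRPA1 channels respond to heat, chemicals, swelling or stretch, TRPM channels carry calcium, magnesium or monovalent cations, TRPML channels (Mcoln genes) release calcium from lysosomes, and TRPP channels (Pkd2 genes) work with polycystin-1 in primary cilia and the endoplasmic reticulum. Piezo1 and Piezo2 form large channels that open when the membrane is stretched, and Piezo1 is known for sensing substrate stiffness and shear in epithelium, endothelium and tumour cells. MRTFA (Mrtfa) is a coactivator that monomeric actin holds out of the nucleus, and SRF is its DNA-binding partner, which recognises the CArG box.

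The 250 bases before the RefSeq start (GRCm38.p6) were read for 24 of the 29 listed genes (Trpc2 included; not Trpm4, Trpa1, Pkd2l1, Pkd2l2 and Piezo2), in 28 windows, and searched on both strands for the CArG box, for a CArG box with 1 mismatch, and for GGAATG, the core of the element bound by TEAD factors. A full CArG box was in 1.47% of all 32851 windows of this length, a box with 1 mismatch in 17.5% and GGAATG in 12.6%. Among the listed genes a full box was in the windows of Trpv1 and Trpc6 (the same letters, CCTTTAAAGG, 196 and 122 bases before the start), a box with 1 mismatch in 9 windows of 7 genes, and GGAATG in the windows of 4 genes. The windows below are those of the genes whose counts are described most closely, together with Trpc6 for its full box. Capitals mark the full CArG box in Trpv1 and Trpc6, the box with 1 mismatch in Piezo1 and in the window of the first Trpv2 start, and GGAATG or its reverse complement in Pkd2 and in the window of the most downstream Trpv2 start. A match is a description of the letters, not a binding site.
Trpv2, chr11:62574236-62574485, + strand: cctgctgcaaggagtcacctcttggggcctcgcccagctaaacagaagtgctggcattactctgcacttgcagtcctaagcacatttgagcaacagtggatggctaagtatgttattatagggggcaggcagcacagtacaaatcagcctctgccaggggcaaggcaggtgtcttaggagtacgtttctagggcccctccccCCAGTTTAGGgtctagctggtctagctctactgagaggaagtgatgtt
Trpv2, most downstream start, chr11:62575377-62575626, + strand: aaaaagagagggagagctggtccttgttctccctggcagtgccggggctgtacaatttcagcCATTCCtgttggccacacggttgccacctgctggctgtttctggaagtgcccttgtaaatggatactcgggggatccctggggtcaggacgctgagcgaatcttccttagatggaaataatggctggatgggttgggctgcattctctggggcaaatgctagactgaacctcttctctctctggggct
Trpv1, chr11:73233899-73234148, + strand: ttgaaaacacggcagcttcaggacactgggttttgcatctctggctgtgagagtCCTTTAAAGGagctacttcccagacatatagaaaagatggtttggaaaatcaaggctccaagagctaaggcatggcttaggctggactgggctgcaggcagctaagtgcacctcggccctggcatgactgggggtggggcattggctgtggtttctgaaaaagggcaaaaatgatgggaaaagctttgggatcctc
Trpc6, chr9:8543892-8544141, + strand: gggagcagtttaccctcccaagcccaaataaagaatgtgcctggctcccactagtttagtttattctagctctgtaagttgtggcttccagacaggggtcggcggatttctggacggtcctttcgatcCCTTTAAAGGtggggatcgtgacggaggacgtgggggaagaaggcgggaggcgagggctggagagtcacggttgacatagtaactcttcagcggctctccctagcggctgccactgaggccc
Pkd2, chr5:104459207-104459456, + strand: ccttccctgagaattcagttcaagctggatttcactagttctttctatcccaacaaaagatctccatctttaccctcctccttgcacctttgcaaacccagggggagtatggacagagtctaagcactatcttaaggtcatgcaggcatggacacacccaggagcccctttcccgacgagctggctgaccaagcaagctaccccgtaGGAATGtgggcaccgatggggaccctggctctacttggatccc
Piezo1, chr8:122551330-122551579, - strand: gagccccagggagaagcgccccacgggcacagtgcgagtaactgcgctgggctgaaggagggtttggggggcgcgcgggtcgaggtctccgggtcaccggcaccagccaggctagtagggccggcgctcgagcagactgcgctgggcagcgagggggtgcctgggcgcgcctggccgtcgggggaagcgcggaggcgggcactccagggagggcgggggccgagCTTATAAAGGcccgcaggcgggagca

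Library totals lay between 81265466 and 115260128 counts, and levels are CPM, counts scaled to a common library size after TMM normalisation. Genes with at least 10 counts numbered 16629 to 17399 in the AT-3 wild-type libraries and 13911 to 15189 in all other libraries. Rises from near 0 in wild-type AT-3 were therefore not particular to channel genes. The MRTFA entry, the construct, had mean CPM of 0.0160 (empty vector), 5434 (wild type) and 2104 (Y238A) in AT-3, against 0.0736, 760.7 and 319.6 in E0771. Wild type therefore exceeded Y238A in construct level by 1.37 ± 0.20 (log2, SE) in AT-3 and 1.25 ± 0.20 in E0771, and the mutation and the lower level cannot be told apart. Both constructs also had higher means in AT-3 than in E0771. Where effects are compared between the lines, line and construct level cannot be told apart. Srf itself rose by 1.65 ± 0.07 with wild type and fell by 1.002 ± 0.07 with Y238A in AT-3, against 1.21 ± 0.07 and -0.26 ± 0.07 in E0771. The label mammary carcinoma was not matched by most of the 7 epithelial markers. The group means of Epcam, Cdh1, Krt18, Cldn3 and Cldn7 were at most 2.38 CPM. Krt8 was at 317 to 622 CPM in E0771 and at most 10.01 in AT-3. Krt19 was at 3.88 to 69.5 CPM in AT-3 and at most 0.112 in E0771. The mesenchymal markers were divided. Vim lay between 768 and 4286 CPM and Zeb1 between 46.2 and 134.7 CPM over both lines. Cdh2 (279 to 405 CPM) and Fn1 (5117 to 11500 CPM) were high in AT-3 only. Their E0771 means were at most 1.275 and 38.5 CPM. E0771 empty vector 2 held 115.3 CPM of Fn1, its fellow replicates 0.077 and 0. Leukocyte, melanocyte and sensory neuron markers that define those cells (Ptprc, Cd3e, Tyr, Scn10a) were at most 0.244 CPM. Genes confined to AT-3, or to wild-type AT-3, were also detected in some libraries of other groups, at medians of up to 1.35% of their own level. Those of wild-type AT-3 were chosen against empty vector only, not against Y238A. This share is here called carry-over as a name only, and its source was not tested. It was 1.35% in E0771 empty vector 2, 1.33% in AT-3 Y238A 1, 0.508% in E0771 wild type 2 and 0.269% in E0771 Y238A 1, the 4 libraries left out together in 1 alternative, and 0.27% in AT-3 Y238A 2, which that alternative kept.

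A gene was called expressed where a group mean reached 1 CPM, low where it reached 0.1 CPM and near absent below that. By this rule 15 of the 28 genes were expressed in 1 group or more, 7 were low (Trpc6, Trpv1, Trpv3, Trpv5, Trpm5, Trpm8, Mcoln3) and 6 were near absent (Trpc4, Trpc5, Trpc7, Trpm1, Trpm2, Pkd2l1). Only 7 were expressed in all 6 groups: Trpc1, Trpm4, Trpm7, Mcoln1, Pkd2, Pkd2l2 and Piezo1. For Pkd2l2, 10.9% of the exon bases overlap Fam13b on the other strand, and the part of Fam13b reads in the Pkd2l2 counts was not tested. With empty vector 9 genes were expressed in AT-3 and 8 in E0771, with wild-type MRTFA 12 and 8, and with Y238A 12 and 9.

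**Figure D1:**
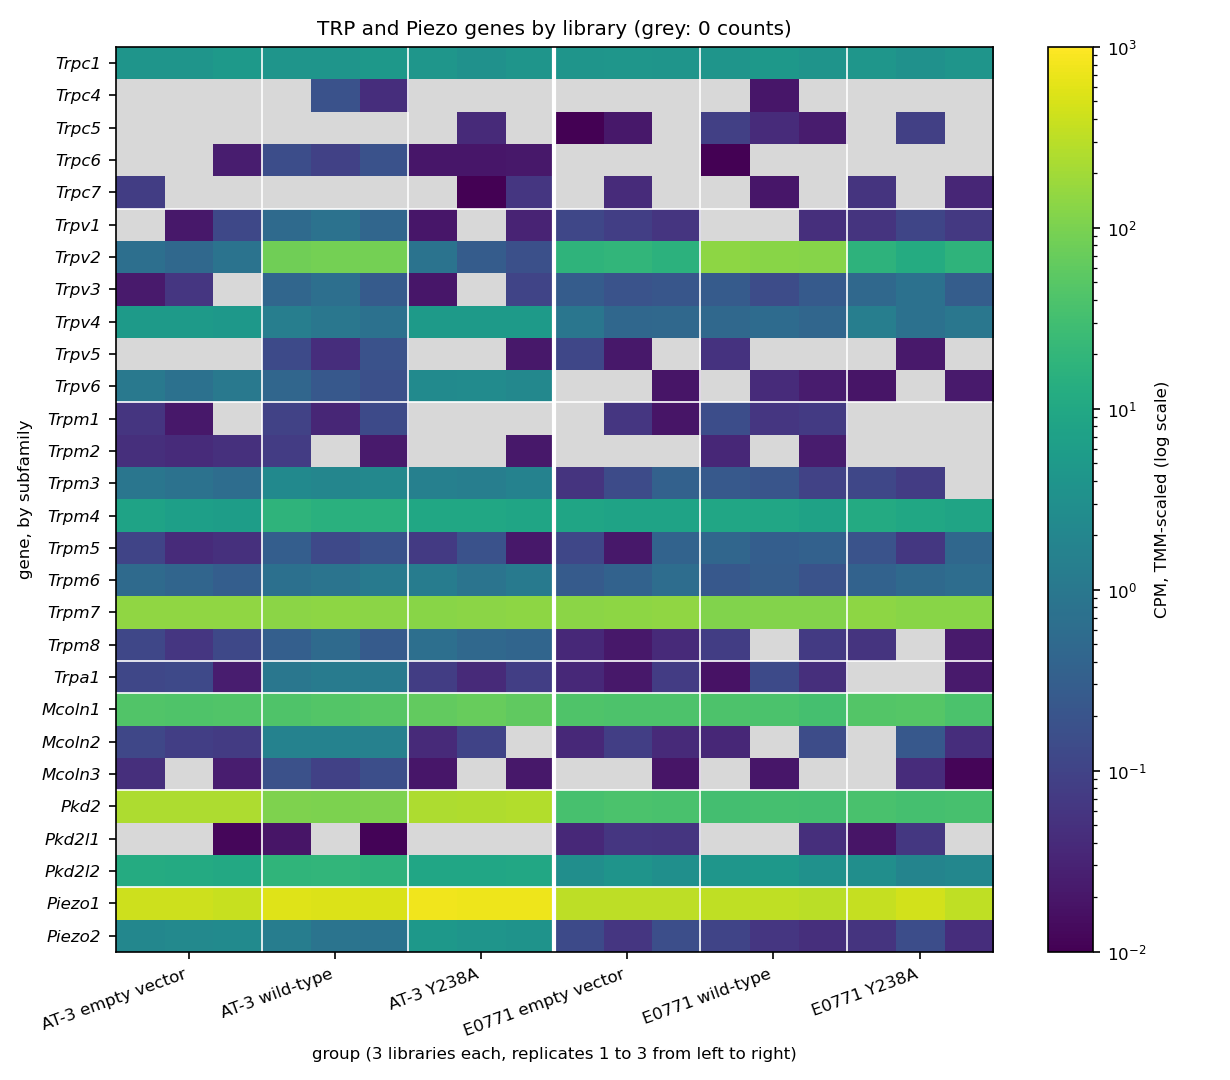
Each cell is the CPM (TMM-scaled, log colour scale) of 1 gene in 1 library, with 3 libraries for each of the 6 groups and genes ordered by subfamily; grey marks 0 counts. Piezo1, Trpm7, Pkd2 and Mcoln1 were high in all 18 libraries, and Trpv2 ranged from 0.168 to 139.6 CPM, the largest ratio between libraries among the genes with counts in every library.

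Per kilobase of exon, the scale on which genes can be compared, Piezo1 led in every group, at 40.9 CPM per kb in AT-3 and 32.0 in E0771 with empty vector. In AT-3 with empty vector it was followed by Pkd2 (23.8 CPM per kb), Trpm7 (13.1), Mcoln1 (5.80), Pkd2l2 (1.97) and Trpv4 (1.25), with all other genes below 1. In E0771 the order after Piezo1 was Trpm7 (12.6 CPM per kb), Mcoln1 (5.41), Trpv2 (3.99) and Pkd2 (3.65), with all others below 1. Wild-type MRTFA moved Trpv2 from the 10th place to the second in AT-3, at 19.5 CPM per kb, and from the 4th to the second in E0771, at 29.2 CPM per kb against 32.7 for Piezo1. These are levels of RNA per length and carry no test between genes.

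Of the 28 genes, 20 passed the filter on low counts and were tested, and 8 did not (Trpc4, Trpc5, Trpc6, Trpc7, Trpm1, Trpm2, Mcoln3, Pkd2l1). A gene can pass through 1 group alone, so the counts that follow describe the genes tested and support nothing about the family. In AT-3, wild-type MRTFA against empty vector gave 12 genes higher and 5 lower at an adjusted p below 0.05, where 68.6% of all 17841 genes tested were called (36.4% higher, 32.2% lower), with a median log2 fold change of 1.13 against 0.07 over all genes. Y238A against empty vector in AT-3 gave 7 higher and 1 lower, beside 43.7% of all genes (21.4% higher, 22.2% lower; medians 0.44 and 0.0055). Wild type against Y238A in AT-3 gave 8 higher and 6 lower, beside 66.2% of all genes (34.8% and 31.4%). In these 3 comparisons the libraries of the groups did not overlap for 18, 12 and 15 of the 20 genes, beside 74.5%, 56.9% and 72.9% of all genes. The called shares of the 20 genes were 85%, 40% and 70%, those of Y238A against empty vector and of wild type against Y238A being near the share of all genes.

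Fewer genes were called in E0771. Wild-type MRTFA against empty vector gave 1 gene higher and 2 lower, beside 24.5% of all genes (11.2% and 13.3%), with a median of 0.03 against -0.05 over all genes. Y238A against empty vector gave 1 higher and 1 lower, beside 12% (5.41% and 6.64%). Wild type against Y238A gave 3 higher and 5 lower, beside 25.7% (12.7% and 13.0%). Groups did not overlap for 4, 3 and 8 of the 20 genes, beside 41.5%, 26.1% and 36.2% of all genes. Between the lines with empty vector, 7 genes were higher and 3 lower in AT-3, beside 72.0% of all genes (36.8% and 35.2%), and 12 did not overlap, beside 75.7%. The effect of wild-type MRTFA against empty vector itself differed between the lines for 12 of the 20 genes, 2 with a higher value in E0771 and 10 with a lower one, where 47.3% of all genes differed (23.3% and 24.0%). That of Y238A differed for 3, all lower in E0771, beside 25.8% (12.2% and 13.6%). The difference between the constructs differed for 10, 4 higher and 6 lower, beside 45.7% (22.9% and 22.7%). Library totals in place of TMM changed the split of higher and lower calls over all genes from 6206 and 5599 to 5173 and 7075 in AT-3 wild type against Y238A, from 965 and 1184 to 1176 and 817 in E0771 Y238A against empty vector, and from 2268 and 2326 to 1972 and 3246 in E0771 wild type against Y238A. In the interactions it went from 4149 and 4285 to 5269 and 3536 for wild type and from 4089 and 4058 to 5225 and 3390 for wild type against Y238A.

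**Figure D2:**
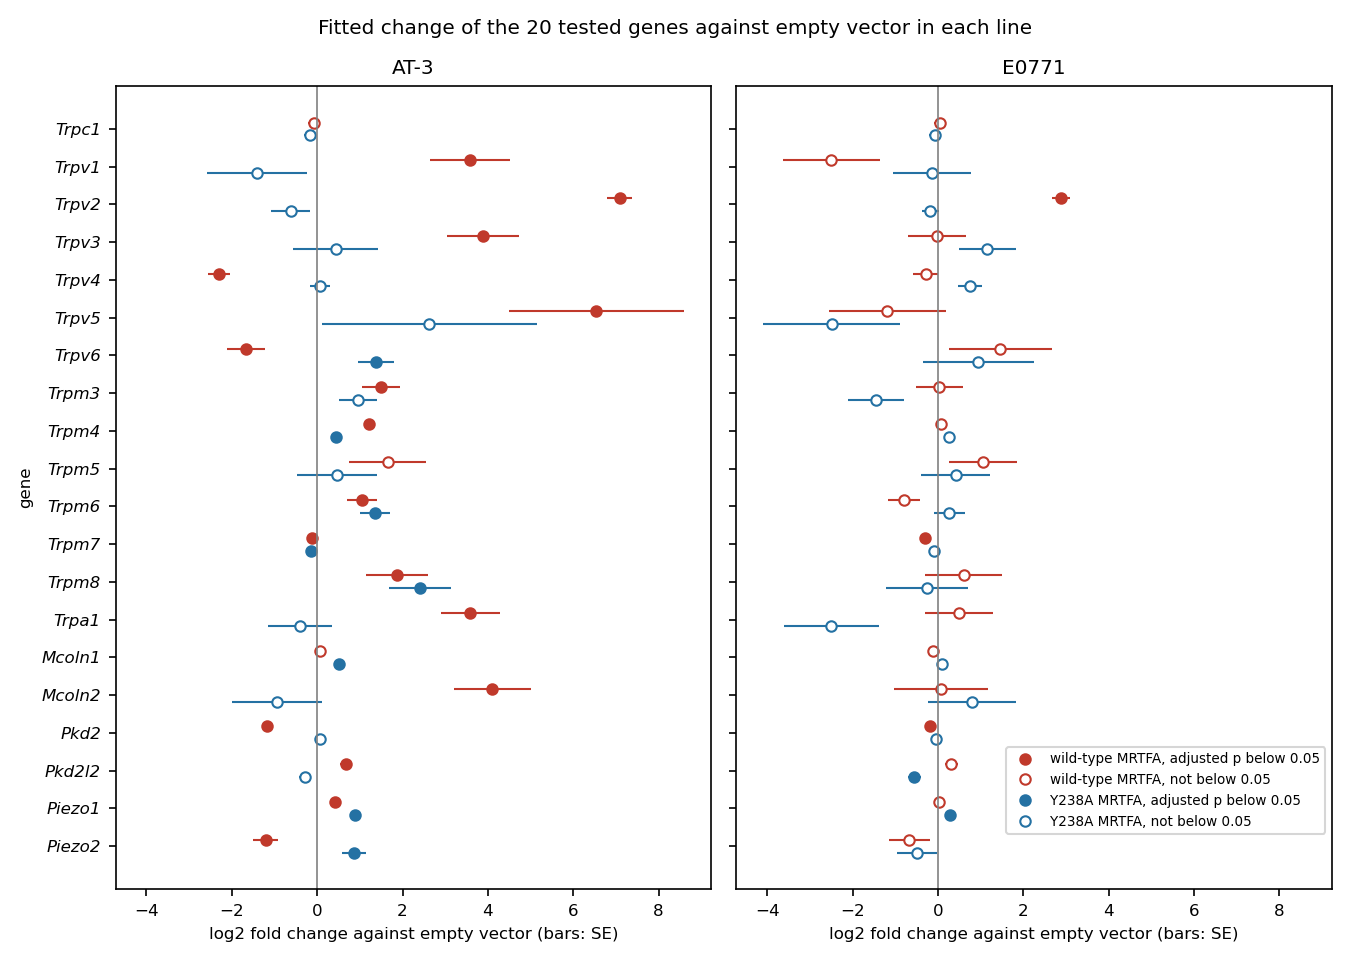
Points are fitted log2 fold changes against empty vector for the 20 tested genes in AT-3 (left) and E0771 (right), bars are standard errors, and filled points passed an adjusted p of 0.05. The largest fitted change was that of Trpv2 with wild-type MRTFA, 7.09 in AT-3 and 2.87 in E0771; the point of Trpv5 in AT-3 rests on 0 counts in the control group and is not a measured fold.

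Trpv2, a calcium channel of the vanilloid family that is described as sensitive to stretch and lipids, rose with wild-type MRTFA in both lines. The gene lies on chromosome 11 at 62574486 to 62600515 (GRCm38, + strand) and shares no exon base with another counted gene. In AT-3 the 3 libraries held 0.671, 0.485 and 0.792 CPM with empty vector, 81.1, 90.6 and 91.0 with wild type, and 0.794, 0.280 and 0.168 with Y238A. The wild-type libraries stood apart from both other groups, which overlapped each other. The rise was 136-fold (log2 7.09 ± 0.29, adjusted p = 4.36e-11), and wild type exceeded Y238A by 7.71 ± 0.30 (adjusted p = 2.69e-11). In bulk libraries more cells with Trpv2 RNA and more RNA per cell cannot be told apart.

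E0771 cells had Trpv2 RNA with empty vector, at 17.9, 19.7 and 16.0 CPM, and reached 139.6, 129 and 125 CPM with wild type and 17.4, 11.9 and 18.1 with Y238A. As in AT-3, every wild-type library lay above every other library of the line. Against empty vector the rise was 7.33-fold (2.87 ± 0.21, adjusted p = 1.84e-07) and against Y238A 3.05 ± 0.21 (adjusted p = 8.94e-08). The effect in E0771 minus that in AT-3 was -4.21 ± 0.36 (adjusted p = 3.28e-07), and the control level in AT-3 minus that in E0771 was -4.80 ± 0.29 (adjusted p = 2.02e-09). With Y238A the change from empty vector did not pass the test in AT-3 (-0.62 ± 0.45, adjusted p = 0.305) or E0771 (-0.18 ± 0.20, adjusted p = 0.648). AT-3 Y238A replicate 1, in which genes confined to wild-type AT-3 reached 1.33% of their level there, held the highest Trpv2 value; without it the change was -1.51 (adjusted p = 0.00649), the wild type against Y238A difference was 8.59, and the Y238A effect differed between lines (1.33, adjusted p = 0.0334).

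Trpv4, an osmotically and mechanically activated calcium channel, moved the other way in AT-3. It lies on chromosome 5 at 114622152 to 114658421 (- strand). Its levels in AT-3 were 5.32, 5.31 and 4.68 CPM with empty vector, 1.37, 0.980 and 0.743 with wild type and 5.32, 5.41 and 5.35 with Y238A. Wild type was below both other groups without overlap. The fall was 2.30 ± 0.26 (log2; adjusted p = 1.33e-07) from empty vector and against Y238A the difference was -2.37 ± 0.26 (adjusted p = 9.13e-08). Trpv4 in E0771 was at 0.904, 0.463 and 0.480 CPM with empty vector, 0.493, 0.571 and 0.452 with wild type and 1.40, 0.738 and 0.962 with Y238A, where wild type overlapped empty vector and lay below Y238A. There, wild type was not called against empty vector (-0.29 ± 0.29, adjusted p = 0.537) and differed from Y238A by -1.04 ± 0.28 (adjusted p = 0.00967). That call was lost in 3 of 26 alternatives (adjusted p up to 0.104), among them without E0771 Y238A replicate 1 (-0.74, adjusted p = 0.0862) and with E0771 fitted alone (adjusted p = 0.0532). Y238A was not called against empty vector in E0771 (0.75 ± 0.28, adjusted p = 0.0877), and was called with DESeq2 (adjusted p = 0.0454), without E0771 empty vector replicate 1 (1.14, adjusted p = 0.0170) or without E0771 Y238A replicate 2 (0.94, adjusted p = 0.0343). With empty vector AT-3 exceeded E0771 by 3.04 ± 0.27 (adjusted p = 2.66e-09), and the effect of wild type in E0771 minus that in AT-3 was 2.01 ± 0.39 (adjusted p = 2.37e-04).

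Trpv6 and Trpv5, the epithelial calcium uptake channels, are neighbours on chromosome 6 with 15.8 kb between them, and they moved apart in AT-3. Trpv6 was at 1.03, 0.727 and 1.04 CPM with empty vector, 0.456, 0.242 and 0.169 with wild type and 2.501, 2.62 and 2.13 with Y238A. The 3 groups did not overlap, with Y238A highest. Trpv6 fell by 1.67 ± 0.45 with wild type (adjusted p = 0.00251), rose by 1.38 ± 0.41 with Y238A (adjusted p = 0.0102) and wild type minus Y238A was -3.05 ± 0.45 (adjusted p = 5.51e-06); the rise with Y238A was 1.23 without AT-3 empty vector replicate 2 (adjusted p = 0.0525). In E0771 it was listed at 0 to 0.0408 CPM, with 2, 6 and 4 counts in all in the empty vector, wild-type and Y238A groups. The ratio of AT-3 to E0771 with empty vector was 139, with a 95% counting interval of 38.0 to 1154 (fitted log2 6.87, and 9.46 without E0771 empty vector replicate 3, which held both counts). Trpv5 had 0 counts in AT-3 with empty vector, 34 with wild type and 2 with Y238A, so wild type was at least 10.7-fold above empty vector with 3 counts over the group as the floor, while the 95% counting interval of the ratio began at 8.21 (adjusted p = 0.00882). Against Y238A the ratio was 18.1 (interval 4.63 to 155, adjusted p = 0.0294). This call was lost in 7 of 24 alternatives, among them without AT-3 wild-type replicate 1 or 3 or AT-3 Y238A replicate 1 or 2 (adjusted p = 0.0651, 0.0948, 0.103 and 0.104). Without AT-3 Y238A replicate 3, which held both Y238A counts, the fitted value was 6.54 in place of 3.91. Against E0771 with empty vector, where Trpv5 had 14 counts, AT-3 was lower, at least 4.07-fold by the same floor and with a ratio of at most 0.346 by the counting interval, but 12 of those counts came from E0771 empty vector replicate 1, without which the adjusted p was 0.272. Leaving out any AT-3 empty vector or AT-3 wild-type library also ended that call (adjusted p between 0.0528 and 0.0944). So did DESeq2 (adjusted p = 0.0889) and the replicate block, and the call was lost in 10 of 24 alternatives in all. Intervals and floors cover counting error only and take counts as independent. Between 61.9% and 64.6% of the nonzero counts of a library were even, and whether both mates of a read pair were counted was not tested.

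Trpv1, the capsaicin and heat receptor of sensory neurons, and Trpv3, a warmth channel of keratinocytes, lie 6.14 kb apart on chromosome 11 and both rose from near 0 in AT-3 with wild-type MRTFA. Trpv1 was at 0, 0.0211 and 0.124 CPM with empty vector, 0.523, 0.761 and 0.450 with wild type and 0.0199, 0 and 0.0315 with Y238A. Trpv3 was at 0.0231, 0.0632 and 0 CPM, then 0.446, 0.669 and 0.270, then 0.0199, 0 and 0.105 in the same order. For both genes every AT-3 wild-type library lay above every library of the other AT-3 groups. Trpv1 rose by 3.58 ± 0.95 (adjusted p = 0.00223) and Trpv3 by 3.89 ± 0.84 (adjusted p = 3.85e-04), to levels that stayed below 1 CPM. Single libraries near 0 set the size: without AT-3 empty vector replicate 3 the change of Trpv1 was 5.57, and without AT-3 empty vector replicate 2 that of Trpv3 was 5.14. Against Y238A the differences were 4.99 ± 1.05 for Trpv1 (5.69 without AT-3 Y238A replicate 3) and 3.45 ± 0.80 for Trpv3 (5.36 without the same library). In E0771, Trpv1 lay between 0 and 0.116 CPM and Trpv3 between 0.143 and 0.738 CPM. No construct changed either at the threshold there, but without E0771 wild-type replicate 3, the 1 wild-type library with Trpv1 counts, Trpv1 was called lower with wild type than with empty vector (-6.08, adjusted p = 0.0247) and than with Y238A (-5.93, adjusted p = 0.0274). With empty vector Trpv3 was lower in AT-3 than in E0771 (-2.88 ± 0.85, adjusted p = 0.00506; -4.13 without AT-3 empty vector replicate 2). Trpv1 and Trpc6 are the 2 of the 24 genes searched with a full CArG box in the window, and a link of the box to expression was not tested.

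Trpm4, a calcium-activated channel that passes sodium but not calcium, rose in AT-3 with both constructs. Its AT-3 levels were 7.86, 6.64 and 6.07 CPM with empty vector, 18.01, 14.8 and 15.1 with wild type and 9.66, 9.67 and 8.81 with Y238A. The 3 groups were separate, wild type highest. The changes were 1.22 ± 0.12 with wild type (adjusted p = 2.15e-08) and 0.45 ± 0.12 with Y238A (adjusted p = 0.00479), and wild type exceeded Y238A by 0.77 ± 0.12 (adjusted p = 1.05e-05). E0771 held 8.51, 7.96 and 7.92 CPM with empty vector, 9.01, 9.17 and 7.53 with wild type and 11.2, 9.42 and 8.45 with Y238A. The empty vector and wild-type libraries overlapped there, and no change passed the test (0.08 ± 0.12 and 0.25 ± 0.12, adjusted p = 0.710 and 0.191). The effect of wild type in E0771 minus that in AT-3 was -1.14 ± 0.17 (adjusted p = 1.34e-05). Between the lines with empty vector Trpm4 was not called (-0.25 ± 0.12, adjusted p = 0.0795). It was called in 3 of 25 alternatives, among them without AT-3 empty vector replicate 1 (-0.36, adjusted p = 0.0208) and with library totals in place of TMM (-0.33, adjusted p = 0.0242).

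Trpm7, a channel for magnesium, calcium and zinc that carries its own kinase domain, was abundant and changed little. It was at 151, 150.4 and 145 CPM in AT-3 with empty vector, 137, 139 and 132 with wild type and 129, 137 and 139.8 with Y238A. Both induced groups lay below the control libraries. The fitted changes were -0.13 ± 0.05 with wild type (adjusted p = 0.0234) and -0.14 ± 0.05 with Y238A (adjusted p = 0.0243). With wild type the call was lost in 5 of 26 alternatives. Among them were the fits without AT-3 empty vector replicate 1 or 2 (adjusted p = 0.0607 and 0.0875), under DESeq2 (adjusted p = 0.0592) and under a stricter filter (-0.05, adjusted p = 0.332). With Y238A it was lost in 4 of 26 (adjusted p up to 0.16), among them without AT-3 empty vector replicate 1 or 2 or Y238A replicate 1 (adjusted p = 0.0884, 0.104 and 0.132). The wild type against Y238A difference, 0.01 ± 0.05, turned to -0.16 (adjusted p = 0.00314) with library totals. In E0771 the values were 134, 143 and 151 CPM, then 112, 117 and 117, then 138.5, 128 and 131. Here wild type was lowest without overlap, and fell by 0.31 ± 0.05 from empty vector (adjusted p = 5.83e-05), in every alternative run, and differed from Y238A by -0.20 ± 0.05 (adjusted p = 0.00306), a call that ended without the 4 libraries left out for carry-over (-0.18, adjusted p = 0.0562). Between the lines with empty vector Trpm7 was not called (0.06 ± 0.05, adjusted p = 0.257), but it was without AT-3 wild-type replicate 2 or 3 (0.12 in both, adjusted p = 0.0249 and 0.0212).

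Trpm6, the magnesium channel and kinase closest to Trpm7, and Trpm3, a heat and neurosteroid channel, were near the expression limit. Trpm6 was at 0.532, 0.421 and 0.309 CPM in AT-3 with empty vector, 0.688, 0.853 and 1.08 with wild type and 1.25, 0.840 and 1.15 with Y238A. Both induced groups lay above the control libraries and overlapped each other. The changes were 1.05 ± 0.35 (adjusted p = 0.0127) and 1.36 ± 0.35 (adjusted p = 0.00348); the first ended without AT-3 empty vector replicate 3 (0.88, adjusted p = 0.06) or AT-3 wild-type replicate 3 (0.75, adjusted p = 0.102). In E0771 Trpm6 was at 0.269, 0.379 and 0.607 CPM, then 0.233, 0.295 and 0.190, then 0.379, 0.521 and 0.618. Wild type was the lowest group, overlapping empty vector and not Y238A. Wild type minus Y238A was -1.07 ± 0.37 (adjusted p = 0.04), a call lost in 11 of 25 alternatives, 7 of them with 1 library left out, with adjusted p up to 0.137; those libraries were AT-3 empty vector 2, AT-3 wild type 2, AT-3 Y238A 3, E0771 wild type 1 and 3, and E0771 Y238A 2 and 3, with values between -1.06 and -0.89. The effect of wild type in E0771 minus that in AT-3 was -1.84 ± 0.51 (adjusted p = 0.0055).

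Trpm3 was at 0.925, 0.779 and 0.619 CPM in AT-3 with empty vector, 2.35, 2.01 and 2.20 with wild type and 1.48, 1.39 and 1.68 with Y238A, and these groups did not overlap. It rose by 1.49 ± 0.45 with wild type (adjusted p = 0.00597). The difference with Y238A, 0.97 ± 0.45, did not pass (adjusted p = 0.0900), but did with AT-3 fitted alone (adjusted p = 0.00113) or without E0771 Y238A replicate 3 (adjusted p = 0.0403). In E0771 it was at 0.0577, 0.137 and 0.353 CPM, then 0.251, 0.204 and 0.0952, then 0.114, 0.0759 and 0. No change passed there, and the groups overlapped. With empty vector AT-3 exceeded E0771 by 2.08 ± 0.51 (adjusted p = 0.00108; 2.98 without E0771 empty vector replicate 3). Trpm3 shares 2.57% of its exon bases with antisense genes, and whether the counting used the strand is not given in the sources used here.

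Trpm8, the cold and menthol receptor, was low, with AT-3 means of 0.101 ± 0.0329 CPM (SD, n = 3) with empty vector, 0.373 ± 0.138 with wild type and 0.535 ± 0.126 with Y238A, and at most 0.0807 CPM in any E0771 library. It rose by 1.88 ± 0.73 with wild type (adjusted p = 0.0272) and 2.40 ± 0.73 with Y238A (adjusted p = 0.0107) in AT-3. The first call ended without AT-3 empty vector replicate 2 (1.64, adjusted p = 0.0908) or AT-3 wild-type replicate 2 (1.43, adjusted p = 0.134). Trpm5, the taste-cell channel, had group means between 0.0652 and 0.367 CPM and no call, although without E0771 empty vector replicate 2 it was called lower in AT-3 than in E0771 with empty vector (-1.96, adjusted p = 0.0471). Trpm1 and Trpm2, a retinal ON-bipolar channel and an oxidant-activated one, were near absent, the highest library at 0.153 CPM for Trpm1 and 0.0775 CPM for Trpm2.

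Trpa1, the receptor for irritants and reactive electrophiles, and Mcoln2, a lysosomal calcium channel of lymphoid cells, reached 1 CPM in a single group, wild-type AT-3. Trpa1 was at 0.116, 0.126 and 0.0248 CPM in AT-3 with empty vector, 0.950, 1.20 and 1.15 with wild type and 0.0794, 0.03998 and 0.0839 with Y238A. Mcoln2 was at 0.116, 0.0843 and 0.0743 CPM, then 1.63, 1.61 and 1.55, then 0.0397, 0.0999 and 0. For both, wild type was separate and the other groups overlapped. Trpa1 rose by 3.59 ± 0.70 (adjusted p = 1.22e-04) and Mcoln2 by 4.11 ± 0.91 (adjusted p = 5.30e-04) against empty vector. Against Y238A the differences were 3.995 ± 0.71 (adjusted p = 5.08e-05) and 5.05 ± 0.97 (adjusted p = 1.42e-04; 6.21 without AT-3 Y238A replicate 2).

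In E0771 Trpa1 was at 0.0385, 0.0211 and 0.0784 CPM, then 0.0179, 0.132 and 0.0476, then 0, 0 and 0.0229, and Mcoln2 at 0.0385, 0.0842 and 0.0392, then 0.0359, 0 and 0.143, then 0, 0.239 and 0.0458. The libraries of every pair of groups overlapped for both genes. With wild type Trpa1 had 19 counts against 2 with Y238A, a ratio of 9.22 (95% counting interval 2.22 to 81.6; adjusted p = 0.0461). That call was lost in 15 of 24 alternatives, 12 of them with 1 library left out (all E0771 and AT-3 libraries but AT-3 empty vector 3, AT-3 Y238A 2, E0771 empty vector 2 and 3, E0771 wild type 1 and E0771 Y238A 3). Without E0771 wild-type replicate 2, where genes confined to AT-3 reached 0.508% of their AT-3 level, it was 1.96 (adjusted p = 0.289), and without E0771 Y238A replicate 3, which held both Y238A counts, 5.68 (adjusted p = 0.0173). No other change of either gene passed the test in E0771.

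Mcoln1, the lysosomal calcium channel mutated in mucolipidosis IV, was expressed in all groups. AT-3 held 44.8, 41.9 and 44.7 CPM with empty vector, 41.7, 46.7 and 49.8 with wild type and 61.8, 68.3 and 58.9 with Y238A. Y238A was above both other groups, which overlapped. It rose by 0.52 ± 0.08 with Y238A (adjusted p = 2.45e-05), whereas wild type gave 0.07 ± 0.08 (adjusted p = 0.450) and differed from Y238A by -0.45 ± 0.08 (adjusted p = 6.51e-05). In E0771 the values were 41.8, 40.7 and 40.0 CPM, then 40.8, 38.6 and 33.5, then 44.9, 47.6 and 38.8, and the groups overlapped. No construct changed it there at the threshold, and the effect of Y238A in E0771 minus that in AT-3 was -0.42 ± 0.12 (adjusted p = 0.01). Wild type against Y238A in E0771 was not called (-0.22 ± 0.08, adjusted p = 0.0596). It was called in 5 of 26 alternatives, among them without AT-3 wild-type replicate 1, E0771 wild-type replicate 1 or E0771 Y238A replicate 3 (adjusted p = 0.0451, 0.0324 and 0.0119). Mcoln3, 8.03 kb from Mcoln2 on chromosome 3, was too low to test, yet its 3 AT-3 wild-type libraries (0.174, 0.0922 and 0.158 CPM) were above all others, of which the highest held 0.0463 CPM.

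Pkd2, polycystin-2, the calcium-permeable channel lost in autosomal dominant polycystic kidney disease, was the gene of the list that fell most clearly. It lies on chromosome 5 at 104459450 to 104505819 (+ strand). AT-3 held 242, 241.5 and 242 CPM with empty vector, 110.2, 105 and 106 with wild type and 247, 252 and 263 with Y238A. Wild type was less than 0.5 times the level of either other group. The difference was -1.17 ± 0.05 from empty vector (adjusted p = 1.29e-14) and -1.24 ± 0.05 from Y238A (adjusted p = 4.16e-15), while Y238A against empty vector was 0.07 ± 0.05 (adjusted p = 0.229). In E0771 Pkd2 was at 34.9, 39.1 and 37.3 CPM, then 32.2, 33.7 and 31.5, then 37.4, 34.3 and 35.6. Wild type was the lowest group, below both others without overlap. The change from empty vector was -0.19 ± 0.05 (adjusted p = 0.00468) and ended with E0771 fitted alone (-0.14, adjusted p = 0.0726). Against Y238A it was -0.14 ± 0.05 (adjusted p = 0.0336), a call lost in 11 of 26 alternatives, 7 of them with 1 library left out (AT-3 empty vector 2, AT-3 wild type 2 and 3, E0771 wild type 1 and 3, E0771 Y238A 1 and 3), with adjusted p up to 0.173. Pkd2 was higher in AT-3 than in E0771 with empty vector by 2.70 ± 0.05 (adjusted p = 5.88e-20), and the effect of wild type differed between the lines by 0.98 ± 0.07 (adjusted p = 2.51e-10).

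Pkd2l2, a polycystin-2 relative, was at 12.2, 11.6 and 10.5 CPM in AT-3 with empty vector, 18.9, 19.1 and 16.97 with wild type and 9.13, 9.14 and 9.96 with Y238A. The groups did not overlap. It rose by 0.68 ± 0.14 with wild type (adjusted p = 3.07e-04) and was higher than with Y238A by 0.96 ± 0.14 (adjusted p = 6.52e-06), while Y238A against empty vector did not pass (-0.28 ± 0.14, adjusted p = 0.127; called with AT-3 fitted alone, adjusted p = 0.0114). In E0771 it was at 3.02, 3.86 and 3.15 CPM, then 4.29, 4.71 and 3.44, then 2.97, 1.80 and 2.03. Y238A was below all other libraries and fell by 0.55 ± 0.16 (adjusted p = 0.0289), and wild type exceeded it by 0.87 ± 0.16 (adjusted p = 3e-04). The call of the fall was lost in 4 of 26 alternatives, among them without E0771 empty vector replicate 2 (adjusted p = 0.143), E0771 Y238A replicate 2 (adjusted p = 0.114) or E0771 Y238A replicate 3 (adjusted p = 0.0815). With empty vector AT-3 exceeded E0771 by 1.78 ± 0.15 (adjusted p = 1.4e-09). Of the exon bases of Pkd2l2, 10.9% overlap Fam13b on the other strand. Fam13b was at a mean of 82.8, 161 and 70.7 CPM in AT-3 and 23.2, 31.2 and 17.97 in E0771 (empty vector, wild type, Y238A), the same order as Pkd2l2 in both lines. Its changes were 0.96 ± 0.07 with wild type and -0.23 ± 0.07 with Y238A in AT-3, and 0.43 ± 0.07 and -0.37 ± 0.07 in E0771. The part of Fam13b reads in the counts of Pkd2l2 was not tested. Pkd2l1, the sour-taste cell and cilium channel, was near absent, at most 0.0651 CPM in a library.

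Among the TRPC genes, only Trpc1, a store- and receptor-operated channel subunit, was expressed, and it was level. Its values in AT-3 were 4.07, 4.09 and 5.16 CPM, then 4.04, 4.02 and 4.55, then 4.26, 3.46 and 4.13 (empty vector, wild type, Y238A). E0771 held 4.02, 4.21 and 3.99 CPM, then 4.11, 4.58 and 3.84, then 4.26, 3.40 and 3.98. All groups overlapped, and no change was called, with fitted values between -0.17 and 0.12 in the 7 direct comparisons. Trpc6, a diacylglycerol-gated channel, was not tested. Its AT-3 wild-type libraries, at 0.155, 0.0922 and 0.180 CPM, lay above every other library, of which the highest was at 0.0248 CPM. Trpc4, Trpc5 and Trpc7 were near absent: the highest library held 0.185, 0.0897 and 0.0810 CPM.

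Piezo1 was the most abundant gene of the list and was higher in AT-3 with either construct. It lies on chromosome 8 at 122481698 to 122551329 (- strand). AT-3 held 424.5, 408 and 387.5 CPM with empty vector, 569.6, 538 and 520.4 with wild type and 770.7, 746 and 734 with Y238A. The 3 groups were separate, and Y238A, the form labelled as deficient in SRF binding, had the highest level. It rose by 0.42 ± 0.07 with wild type (adjusted p = 3.59e-05) and 0.88 ± 0.07 with Y238A (adjusted p = 5.65e-09), and wild type minus Y238A was -0.47 ± 0.07 (adjusted p = 9.51e-06). The call with wild type held in every alternative run, between 0.26 and 0.49. With empty vector AT-3 exceeded E0771 by 0.36 ± 0.07 (adjusted p = 1.66e-04).

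E0771 held 324, 315 and 314 CPM of Piezo1 with empty vector, 337, 329 and 309.7 with wild type and 365, 447 and 337 with Y238A. Wild type overlapped both other groups, and Y238A lay above empty vector, with its replicate 2 above all others. That library also stood apart over all genes: its chi-square divided by the degrees of freedom was 57.3 and 68.4 against its fellow replicates, which gave 12 against each other. AT-3 wild-type replicate 1 stood apart too, at 40.1 and 51.8 against its fellows, which gave 7.12 against each other. Its construct level was 7081 CPM, that of its fellows 4835 and 4385. In E0771 the change of Piezo1 with wild type was 0.03 ± 0.07 (adjusted p = 0.795) and with Y238A 0.27 ± 0.07 (adjusted p = 0.0177). The call with Y238A was lost in 5 of 26 alternatives (adjusted p up to 0.0906). Among them, the change was 0.14 without E0771 Y238A replicate 2 (adjusted p = 0.0777). Leaving out E0771 empty vector replicate 2 or 3 also ended it (adjusted p = 0.0695 and 0.0630). Wild type against Y238A, -0.24 ± 0.07 (adjusted p = 0.0186), was lost in 6 of 26 alternatives (adjusted p up to 0.138). Among them were the fits without E0771 Y238A replicate 2 (-0.11, adjusted p = 0.131), E0771 wild-type replicate 3 (adjusted p = 0.0953) or AT-3 wild-type replicate 2 or 3 (adjusted p = 0.0580 and 0.0517). The effect in E0771 minus that in AT-3 was -0.61 ± 0.10 for Y238A (adjusted p = 1.27e-04) and -0.38 ± 0.10 for wild type (adjusted p = 0.00387); the latter did not hold without AT-3 wild-type replicate 2 (-0.21, adjusted p = 0.144), without AT-3 wild-type replicate 3 (-0.24, adjusted p = 0.0971) or with library totals (-0.25, adjusted p = 0.0585).

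**Figure D3:**
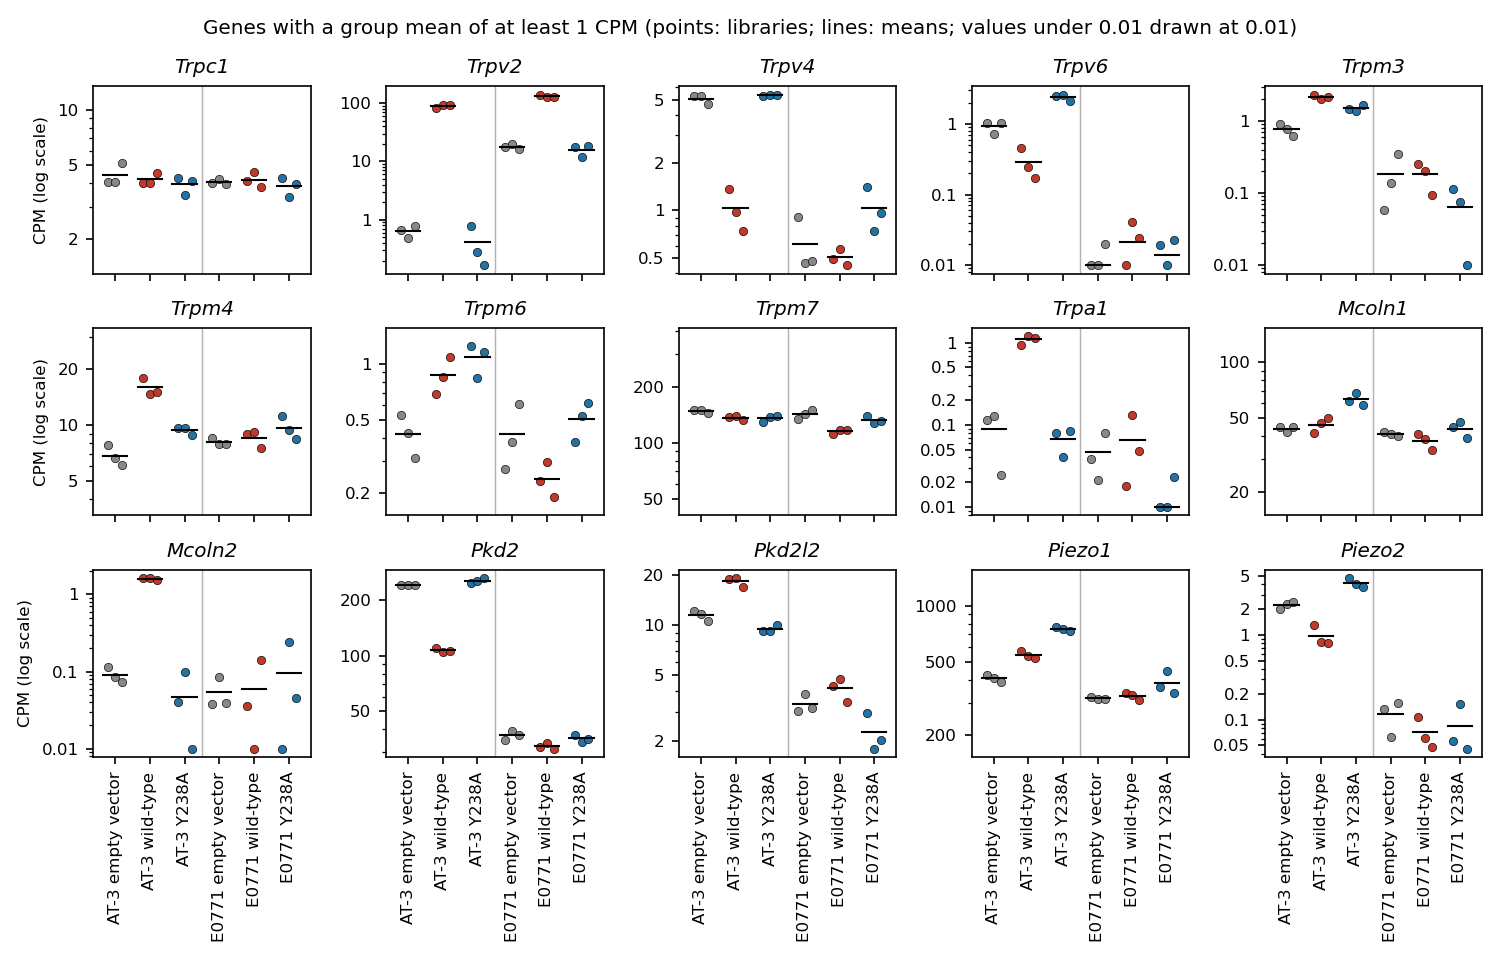
Points are CPM of single libraries (log axis, with its own range in each panel; values under 0.01 are drawn at 0.01) and lines are group means for the 15 genes with a group mean of at least 1 CPM, AT-3 left and E0771 right of the grey line. Trpv2 was high with wild-type MRTFA in both lines, Pkd2 and Trpv4 were low with it in AT-3, and Piezo1, Piezo2, Trpv6 and Mcoln1 were highest with Y238A in AT-3.

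Piezo1 exons share 24.6% of their bases with Ctu2, a tRNA-modifying enzyme gene on the other strand. Ctu2 was at a mean of 28.0, 24.7 and 20.6 CPM in AT-3 and 54.8, 54.7 and 54.3 in E0771 (empty vector, wild type, Y238A). It fell in AT-3, by 0.18 ± 0.06 with wild type and 0.44 ± 0.06 with Y238A, while Piezo1 rose, and its level was below that of Piezo1 in every library. How reads of the shared bases were assigned was not tested.

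**Figure D4:**
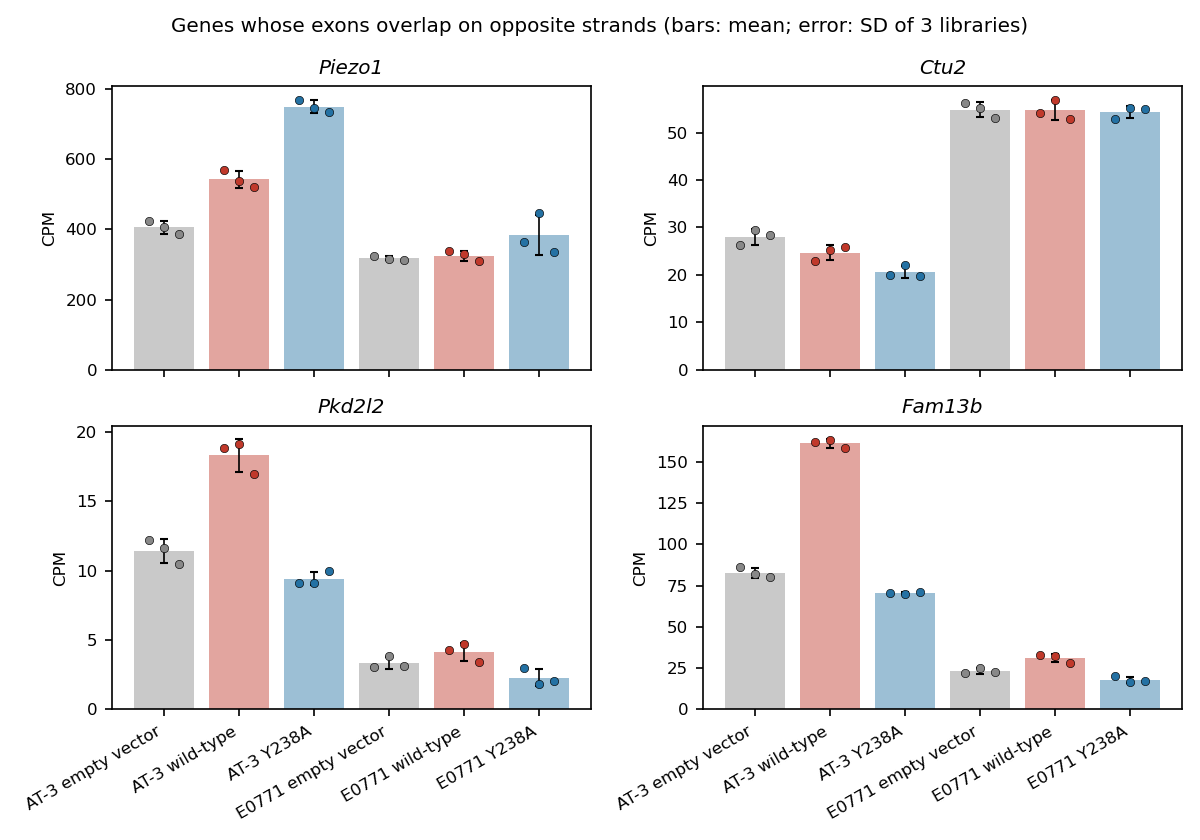
Bars are mean CPM with SD error bars and points are the 3 libraries of each group, for Piezo1 and Pkd2l2 (left) and the genes that overlap their exons on the other strand (right). Piezo1 and Ctu2 moved in opposite directions in AT-3, and Pkd2l2 and Fam13b had the same order of groups in both lines.

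Piezo2, the channel of touch and proprioception, was expressed in AT-3 only. Its AT-3 levels were 2.04, 2.30 and 2.48 CPM with empty vector, 1.30, 0.830 and 0.811 with wild type and 4.68, 3.998 and 3.71 with Y238A. The groups were separate, in the order wild type, empty vector, Y238A. It fell by 1.21 ± 0.29 with wild type (adjusted p = 0.00102), rose by 0.86 ± 0.28 with Y238A (adjusted p = 0.0155) and wild type minus Y238A was -2.07 ± 0.29 (adjusted p = 2.8e-06). The call of the rise with Y238A was lost in 3 of 26 alternatives, among them without AT-3 empty vector replicate 1 (0.80, adjusted p = 0.0632) or AT-3 Y238A replicate 1 (0.76, adjusted p = 0.0726). E0771 held 0.135, 0.0632 and 0.157 CPM, then 0.108, 0.0611 and 0.0476, then 0.0569, 0.152 and 0.0458, with overlap between all groups and no call. With empty vector AT-3 exceeded E0771 by 4.24 ± 0.36 (adjusted p = 1.17e-09). Piezo1 and Piezo2 thus moved in opposite directions with wild type and in the same direction with Y238A in AT-3.

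Genes that work with these channels were counted in 5 lists, for wild-type MRTFA against empty vector, where 68.6% of all genes were called in AT-3 and 24.5% in E0771. As for the channel genes, a gene can pass the filter on low counts through 1 group alone. The counts and medians describe the genes tested and support nothing about the lists. The medians of the lists, in the order below, were 3.03, 0.82, 0.06, 0.78 and -0.05 in AT-3 (all genes 0.07) and 0.12, -0.04, -0.0085, 0.335 and -0.08 in E0771 (all genes -0.05). Polycystin-1 proteins, the partners of polycystin-2, had 5 genes listed and 4 tested. Of the 4, all were higher with wild-type MRTFA in AT-3, and 1 was higher in E0771. Pkd1 rose from 248 ± 16.0 to 761.5 ± 128 CPM in AT-3 (1.62 ± 0.13, adjusted p = 3.71e-08) and from 68.5 ± 3.12 to 115.1 ± 8.24 CPM in E0771 (0.75 ± 0.13, adjusted p = 5.91e-04), and Pkd2 fell in both. Pkd1l3 and Pkd1l1 rose in AT-3, by 1.84 ± 0.26 and 4.90 ± 1.17, the latter from 0.0195 CPM. Of the list of other mechanically gated channels, 6 of 13 were higher and 3 lower in AT-3, and 2 and 1 in E0771. Tmem63a, an osmosensitive channel, rose in both lines, by 2.14 ± 0.07 and 0.86 ± 0.07. Tmem150c (tentonin 3) had 0 counts in AT-3 with empty vector and 3.44 ± 0.84 CPM with wild type, and Kcnk2, the stretch-gated potassium channel TREK-1, rose by 1.53 ± 0.33 in E0771 to 0.444 CPM. Tmem120a rose by 0.52 ± 0.05 in AT-3 and Tmem63b fell by 0.34 ± 0.06 in AT-3 and 0.25 ± 0.06 in E0771.

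Proteins that bind Piezo or TRP channels were higher for 8 and lower for 6 of 16 in AT-3, and 4 and 4 in E0771. S100a10, which carries TRPV5 and TRPV6 to the membrane, fell in AT-3 by 1.14 ± 0.05 and in E0771 by 0.32 ± 0.05. Fkbp4, an immunophilin, fell by 0.98 ± 0.06 (AT-3) and 0.215 ± 0.06 (E0771), Pacsin3, which binds TRPV4, rose by 0.72 ± 0.08 in E0771, and Cnnm4, of a family that binds TRPM7, rose by 1.12 ± 0.07 and 0.28 ± 0.07. Upstream phospholipase C genes were higher for 4 and lower for 2 of 7 in AT-3, and 4 and 1 in E0771. Plcb4 rose from 0.390 to 16.2 CPM in E0771 (5.38 ± 0.25, adjusted p = 9.07e-11), and Plcb1 by 3.12 ± 0.49 to 0.437 CPM; both also rose in AT-3, by 2.86 ± 0.19 and 1.84 ± 0.20. In AT-3 Plcb3 rose by 1.09 ± 0.07 (0.42 ± 0.07 in E0771) and Plcg1 fell by 1.21 ± 0.06, and Gnaq rose in both lines, by 0.78 ± 0.05 and 0.335 ± 0.05. Endolysosomal genes were higher for 3 and lower for 3 of 10 in AT-3, and 1 and 4 in E0771. Tpcn1, a two-pore channel of endosomes, fell by 0.66 ± 0.06 and 0.37 ± 0.06. Tfe3, a transcription factor of lysosomal genes, rose by 0.51 ± 0.05 and 0.19 ± 0.05, and Lamp1 rose in AT-3 (0.33 ± 0.04). Fig4, of the complex that makes the lipid that opens TRPML1, fell by 0.59 ± 0.08 (AT-3) and 0.49 ± 0.08 (E0771), and Vac14 of the same complex fell by 0.18 ± 0.05 in E0771. With Y238A against empty vector the lists had, in the same order, 0, 5, 5, 0 and 6 genes higher and 0, 1, 4, 4 and 2 lower in AT-3, where 43.7% of all genes were called, and 0, 1, 1, 0 and 0 higher and 0, 0, 3, 0 and 3 lower in E0771, where 12% of all genes were called (5.41% higher, 6.64% lower).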

How the data were processed

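The deposited counts were whole reads per gene in 18 mRNA libraries; the authors aligned with STAR and counted with featureCounts on GRCm38, per the submitters' processing notes, and versions, annotation release and strand setting are not given in the sources used here. Groups and replicate numbers came from the sample titles. Counts of the 17841 genes that passed edgeR's filterByExpr (minimum count 10, minimum total 15) were fitted with edgeR 4.0.16 (R 4.3.3, limma 3.58.1): TMM, 6 group means over all 18 libraries, glmQLFit with robust priors and glmQLFTest with 12 residual degrees of freedom. P-values were adjusted over all genes tested (Benjamini-Hochberg) and a gene was called below 0.05. Differences between lines are interaction contrasts of the same fit. CPM used library totals times the TMM factor, and CPM per kb the exon length of GENCODE (GRCm38). The fit was tested on simulated data. Library totals of 81265466 to 115260128 counts put the floor of 3 counts over a group near 0.01 CPM.

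The channel genes, the pathway lists and the tests were chosen with earlier results of these data known. Every expressed channel gene was described; from each pathway list up to 3 called genes per line with the smallest adjusted p were named, and a gene named for 1 line was given in the other where its value was called there. Alternatives were DESeq2 1.42.0, its size factors, library totals, no filter and a stricter one (1 CPM in 3 libraries), each line fitted alone, a replicate block, leaving out 4 libraries chosen for carry-over and leaving out each library in turn. Promoter windows were RefSeq's for GRCm38.p6; those on chromosome 18 were not used here.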

Additional observations from a re-analysis of the deposited data

Results flagged for a closer look

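For these genes the effect of a construct differed between the lines in the interaction test of the edgeR fit (adjusted p below 0.05). Values are log2 effects in E0771 less those in AT-3. Both constructs had higher means in AT-3, so line and construct level cannot be told apart here. Groups of 3 libraries were too small for a test of single outlying libraries.

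For wild-type MRTFA against empty vector the values that kept their call in every alternative that tested the gene were -6.08 for Trpv1, -4.21 for Trpv2, -3.91 for Trpv3, 2.01 for Trpv4, -1.14 for Trpm4, -1.84 for Trpm6 and 0.98 for Pkd2. The stricter filter did not test Trpv1, Trpv3 or Trpm6. Single libraries with few counts set the size for Trpv1 (-8.07 without AT-3 empty vector replicate 3, -5.45 and -9.66 without E0771 wild-type replicate 1 and 3) and Trpv3 (-5.16 without AT-3 empty vector replicate 2). Trpv5 had -7.73, which rests on 0 counts in AT-3 with empty vector and is not a measured size. Its call was lost with DESeq2 (-7.17, adjusted p = 0.053) and without E0771 empty vector replicate 1 (-5.70, adjusted p = 0.138). Without E0771 wild-type replicate 1, which held all 6 counts of its group, the value was -11.7 and rests on another group with 0 counts. Trpa1 had -3.10; without AT-3 wild-type replicate 2 or 3 or E0771 wild-type replicate 1 the adjusted p was 0.0554, 0.0523 and 0.0501, without E0771 empty vector replicate 3 the value was -2.50 (adjusted p = 0.111), and without E0771 wild-type replicate 2 it was -4.14, and -4.45 without the 4 libraries left out for carry-over. Mcoln2 had -4.03, lost without AT-3 empty vector replicate 2 or 3, AT-3 wild-type replicate 2 or 3, E0771 empty vector replicate 2 or E0771 wild-type replicate 1 (adjusted p up to 0.0909) or without the 4 libraries left out for carry-over (-2.99, adjusted p = 0.0757), and -5.56 without E0771 wild-type replicate 3. Piezo1 had -0.38, lost without AT-3 wild-type replicate 2 or 3 (adjusted p = 0.144 and 0.0971) and with library totals (adjusted p = 0.0585). Trpm7 had -0.18, lost without AT-3 empty vector replicate 3, AT-3 wild-type replicate 3, E0771 empty vector replicate 3 or E0771 wild-type replicate 1 (adjusted p = 0.0701, 0.83, 0.0991 and 0.089), with library totals, with no filter or without the 4 libraries left out for carry-over (adjusted p = 0.599, 0.0667 and 0.0719), and near 0 without AT-3 wild-type replicate 2 (0.0117, adjusted p = 0.949).

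For Y238A against empty vector, -0.42 for Mcoln1 and -0.61 for Piezo1 kept their call in every alternative. Trpm3 had -2.42, lost without AT-3 empty vector replicate 3, AT-3 Y238A replicate 3 or E0771 Y238A replicate 3 (adjusted p = 0.0551, 0.0522 and 0.052) and with the replicate block (adjusted p = 0.0637), -1.52 (adjusted p = 0.192) without E0771 empty vector replicate 3, -3.16 without E0771 Y238A replicate 1 and -3.34 without the 4 libraries left out for carry-over.

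For wild type against Y238A, -7.34 for Trpv1, -4.65 for Trpv2, -4.63 for Trpv3, 1.34 for Trpv4, -0.94 for Trpm4 and 1.10 for Pkd2 kept their call in every alternative that tested the gene. Trpv1 and Trpv3 were not tested under the stricter filter. Trpv1 was -8.03 without AT-3 Y238A replicate 3, and -6.70 and -10.9 without E0771 wild-type replicate 1 and 3. Trpv2 was -5.54 without AT-3 Y238A replicate 1 and -5.45 without the 4 libraries left out for carry-over, and Trpv3 -6.54 without AT-3 Y238A replicate 3. Trpv6 had 3.56, which rests on 6 against 4 counts in E0771 and was 2.65 (adjusted p = 0.251) without E0771 wild-type replicate 2, 3.48 (adjusted p = 0.0613) without replicate 3, 4.20 without replicate 1 and 2.93 (adjusted p = 0.266) without the 4 libraries left out for carry-over. Mcoln2 had -5.76, which was -3.69 (adjusted p = 0.0914) without E0771 Y238A replicate 2, -5.17 and -7.28 without E0771 wild-type replicate 2 and 3, -6.36 without E0771 Y238A replicate 1 and -6.91 without AT-3 Y238A replicate 2. Trpm7 had -0.21, lost without AT-3 wild-type replicate 2 or 3, AT-3 Y238A replicate 1 or E0771 Y238A replicate 1 (adjusted p = 0.444, 0.215, 0.053 and 0.0516), with library totals or without the 4 libraries left out for carry-over (adjusted p = 0.255 and 0.169). Piezo2 had 1.89, which was 1.46 (adjusted p = 0.118) without E0771 wild-type replicate 1, 1.67 (adjusted p = 0.0667) without the 4 libraries left out for carry-over and 2.58 without E0771 Y238A replicate 2.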

How the results depend on the processing

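Of 87 calls of channel genes over the 10 comparisons and interactions, 60 held in every alternative that tested the gene and 27 were lost or turned in 1 or more. With the stricter filter, which tested 13 channel genes in AT-3 wild type against empty vector, 10 were called there and 7 in the wild-type interaction, beside 77% and 58.3% of all genes. Without the 4 libraries left out for carry-over, 1 was called in E0771 Y238A against empty vector, 2 in E0771 wild type against Y238A and 5 in the Y238A interaction, beside 4.6%, 17.8% and 18.5% of all genes. With each line fitted alone, E0771 gave 0 for Y238A against empty vector and 3 for wild type against Y238A, beside 12.3% and 27.7%. Leaving out 1 library gave 0 to 3 and 5 to 9 in those E0771 comparisons. Trpm7 turned to -0.161 in AT-3 wild type against Y238A with library totals, and its wild-type interaction ranged from -0.228 to 0.0117 when 1 library was left out; the cause was not tested. Library totals moved the median of all genes from 0.0714 to -0.0673 in AT-3 wild type against empty vector, and the split of higher and lower calls over all genes from 6497 and 5743 to 5668 and 6913.

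Whether the replicate numbers pair the libraries was not settled. Same-numbered libraries correlated between -0.18 and 0.394, 5 of 18 pairs above 0.1. Libraries of other numbers correlated between -0.264 and 0.279, 5 of 36 pairs above 0.1. In 12 of 18 cases the best match had the same number, a hint from the data and not the design. With the replicate block 17, 8 and 14 channel genes were called in the AT-3 comparisons and 3, 2 and 6 in those of E0771, beside 68.9%, 44.2% and 66.4%, and 25.7%, 12.9% and 26.3%, of all genes. Genes below about 0.1 CPM rest on at most 10 counts per library, so differences there are not detectable at this depth unless large.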
